A study of Homo sapiens with 6 samples.

Results

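Replication licensing genes were examined as a set of 10 human genes: MCM2, MCM3, MCM4, MCM5, MCM6, MCM7, MCM10, CDC6, CDT1 and PCNA. They were chosen by name, out of 19864 protein-coding genes on chromosomes 1 to 22 and X, and all 10 were found in the GENCODE release 29 annotation of build GRCh38. Their peaks were those whose interval lay within 500 bp of any annotated transcript start of the gene, called start peaks here. The data were peak lists from precision run-on sequencing of K562, an established human leukaemia line, untreated in every group. Run-on sequencing labels the nascent RNA held by engaged RNA polymerases, and dREG is a classifier that calls active promoters and enhancers from the run-on reads of both strands. The PRO-seq 1M group was made with the published protocol (3 affinity purifications, 11 PCR cycles) from 1M permeabilized cells. The qPRO-seq 1M group was made with the quick protocol (1 purification, 11 cycles) from 1M cells, and the qPRO-seq 250k group with the quick protocol (14 cycles) from 250k cells. Each group had 2 replicates grown at least 3 passages apart, read as paired 37 nt reads with a 6 nt molecular identifier, and a single deposited list, so no spread between replicates could be measured, and every difference between lists is a description with no test.

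Licensing prepares replication origins before S phase. The origin recognition complex, CDC6 and CDT1 load the ring of MCM2 to MCM7, the core of the replicative helicase, onto DNA. MCM10 acts later, when the loaded helicase is activated, and PCNA is the sliding clamp that holds DNA polymerases on the template. Genes of this group are well-known targets of E2F transcription factors, which act at the passage from G1 to S phase, so the start regions of their promoters are shown first.

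RefSeq promoter windows (build GRCh38.p14, 250 bases before to 50 after a start) matched 8 of the 10 genes, all but MCM4 and MCM5, with 11 windows in all. An E2F-type motif (TTTCCCGC, TTTGGCGC, TTTCGCGC or TTTGCCGC, either strand) was present in 7 of these 8 genes. The same search found it in 855 of 15812 protein-coding genes with a window (5.41%), and in 4.11% of 22132 single windows. Without the first T of each word, the 7-letter words were found in the same 7 genes and in 20.5% of all genes. The choice of the genes by name did not use these letters. Because the group is well known for E2F targets, the share with a match is still not independent of that choice. Each line gives a match in capitals with 10 bases on either side, 5′ to 3′ in the direction of the gene.
MCM2: gtgaaccactTTTCGCGCgaaacctggt
MCM3: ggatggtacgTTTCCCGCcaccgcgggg
MCM6: gggctttgcaTTTGGCGCgaaatccctt
MCM6, downstream match: attggtcaggTTTGGCGCgaaatctcca
MCM7: agctcggaccGCGGGAAAcccggcgcct
MCM7, downstream match: gggggcgacgTTTCGCGCcaatttcggt
CDC6: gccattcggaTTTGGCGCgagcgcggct
CDT1: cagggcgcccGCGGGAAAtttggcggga
PCNA: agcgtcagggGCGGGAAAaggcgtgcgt

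The first base of the MCM6 matches lay at -152 and -90 from the RefSeq start, counting -1 as the base before it. The MCM3 match shown lay at -174, those of MCM7 at -187 and -9, that of CDT1 at -35 and that of PCNA at -59. In MCM2 and CDC6 the matches lay just after the RefSeq start, at 3 and 8. Several matches are read on both strands of nearly the same letters: in MCM6, TTTGGCGCGAAA occurred at both places and holds an E2F-type word on each strand. These counts are matches of letters and say nothing of binding.

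The whole 250 bases upstream of MCM6 (chr2:135876444-135876693, minus strand) and the stretch upstream of MCM10 that no annotated exon covers (chr10:13161308-13161553, plus strand) are set side by side. Of the 8 genes searched, MCM10 was the gene without an E2F-type match. The third stretch is the space between the starts of PCNA and its divergent neighbour CDS2 (chr20:5126627-5126785, minus strand). Capitals mark E2F-type words and CCAAT on either strand.
MCM6: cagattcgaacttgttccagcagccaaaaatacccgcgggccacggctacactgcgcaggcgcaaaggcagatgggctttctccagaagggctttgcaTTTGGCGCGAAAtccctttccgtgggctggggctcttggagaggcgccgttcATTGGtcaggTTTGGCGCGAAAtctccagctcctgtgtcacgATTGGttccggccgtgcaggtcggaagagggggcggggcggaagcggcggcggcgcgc
MCM10: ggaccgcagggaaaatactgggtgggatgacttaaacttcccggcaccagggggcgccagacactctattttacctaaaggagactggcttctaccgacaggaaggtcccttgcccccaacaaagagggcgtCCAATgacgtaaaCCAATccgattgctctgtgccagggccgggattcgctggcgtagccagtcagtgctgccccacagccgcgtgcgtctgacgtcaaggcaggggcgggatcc
PCNA: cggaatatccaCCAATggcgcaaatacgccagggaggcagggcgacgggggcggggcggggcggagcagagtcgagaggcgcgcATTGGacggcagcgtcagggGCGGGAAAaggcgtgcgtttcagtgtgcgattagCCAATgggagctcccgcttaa

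CCAAT, the core of the NF-Y site, was present in 6 of the 8 genes (MCM3, MCM6, MCM7, MCM10, CDC6 and PCNA), against 42.1% of all genes with a window. GGGCGG, the GC box bound by Sp1, was present in 6 of 8, against 64.2%. TTTGAA, a cell cycle element, was present in none of the 8, against 15.8% of all genes. The TATA box word TATAAA was present in none, against 12.4%, and the ETS-type word ACTTCCGG in none, against 6.98%. Each of these words was searched on both strands, and no match says only that the letters are absent from these windows. The 11 windows had a median GC content of 67.7% (57.3% to 74.3%), against 62.3% over 22132 windows, and a median of 33 CpG dinucleotides (21 to 47), against 21.

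All 10 licensing genes had a start peak in both 1M lists, and 9 did in the 250k list. Over all protein-coding genes the shares were 52.9% in the published-protocol list, 54.5% in the quick-protocol 1M list and 44.0% in the 250k list. MCM10 was the gene without a start peak in the 250k list. A start peak in all 3 lists was found for 9 of the 10, against 43.1% of protein-coding genes. The lists were also brought to equal length, at the 15562 top-scored peaks of each. In the single lists 8, 8 and 9 of the 10 then had a start peak, against 47.0%, 42.4% and 44.0% of protein-coding genes. In all 3 of these lists 6 of the 10 had one, and the matching share of all genes was not computed. In the full lists the 10 genes held 15, 18 and 12 start peaks. Sets of 3 values are ordered throughout as published protocol, quick protocol with 1M cells and quick protocol with 250k cells.

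The score that the authors deposited with each peak was read as its percentile within its own list, the share of peaks that scored lower. Lists of unequal length make percentiles of different lists values to be read side by side, not as a change. Each gene was described by its top-scored start peak. The median over the licensing genes with a start peak was 74.2, 82.6 and 59.9, against 76.4, 80.7 and 68.2 over all protein-coding genes with one. Of the licensing genes, 5 of 10, 5 of 10 and 3 of 9 stood above that median of all genes. The share of members with a start peak was thus above that of genes at large, while their top peaks lay on both sides of the median rank. MCM3 was above the median of all genes in every list, while MCM7 and CDT1 were below it in every list.

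**Figure D1:**
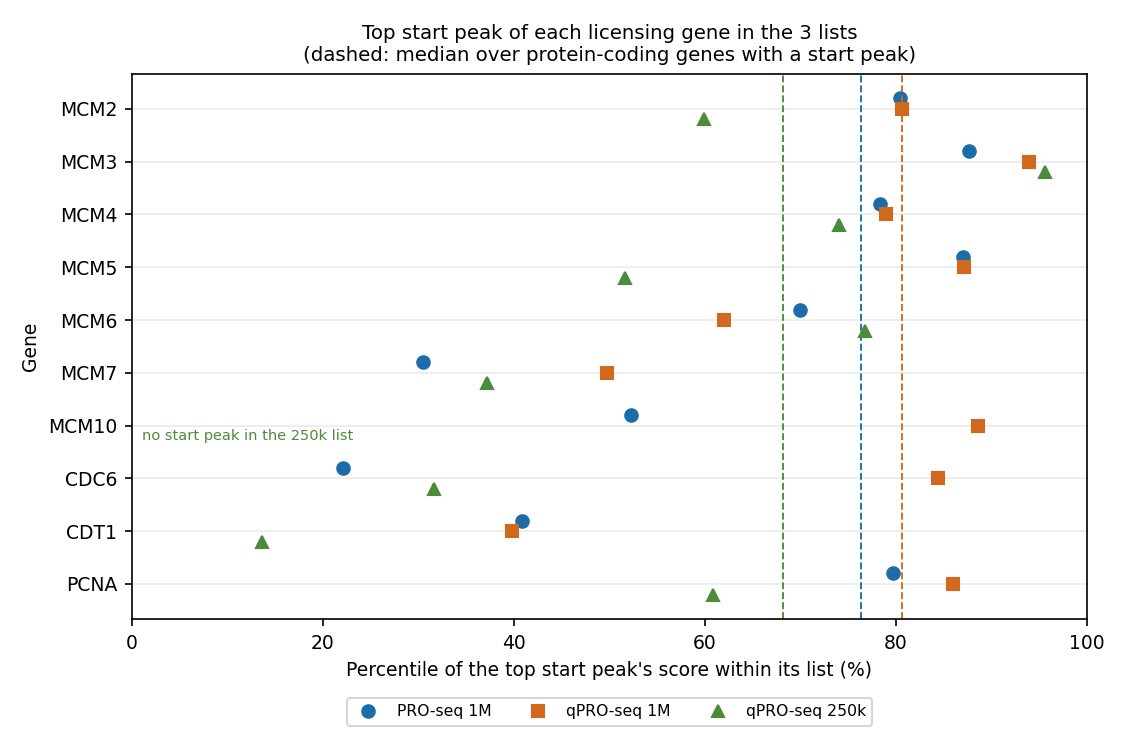
Percentile of the top start peak's score within its list (x axis, percent) for each of the 10 licensing genes (y axis), with circles for PRO-seq 1M, squares for qPRO-seq 1M and triangles for qPRO-seq 250k; dashed lines are the medians over all protein-coding genes with a start peak (76.4, 80.7 and 68.2). MCM3 stood right of the dashed line of its list in all 3 lists, MCM7 and CDT1 stood left of it, CDC6 spread from 22.1 to 84.4, and MCM10 had no start peak in the 250k list.

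Among the 6 genes of the helicase ring, MCM3 (chromosome 6, 52264009 to 52284881, minus strand) had the highest peaks. Its single start peak stood at percentiles 87.7, 94.0 and 95.6, with deposited scores of 1.00, 1.04 and 0.989, and at or above 71.7%, 82.7% and 92.2% of genes with a start peak. The 3 intervals nearly coincided, at 52284581 to 52285220, 52284571 to 52285230 and 52284611 to 52285200, and their centres lay 59, 69 and 79 bp upstream of the annotated start. Both MCM3 matches to the E2F-type word fell inside the peak in all lists. They lay at -174 and -4 from the RefSeq start (52284742), not from the GENCODE start used for the centres, and the first spanned 52284909 to 52284916.

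MCM5 (chromosome 22, 35400063 to 35425430, plus strand) also carried a single start peak in each list, at percentiles 87.0, 87.1 and 51.6. The widths were 840, 920 and 540 bp, the first of them the widest start peak of the set in PRO-seq 1M and the second the widest in qPRO-seq 1M. MCM5 was thus among the higher members in both 1M lists and below the median of all genes in the 250k list, where it stood at or above 31.5% of genes. The centres lay 43, 73 and 73 bp upstream of the first start.

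MCM6 (chromosome 2, 135839626 to 135876426, minus strand) had its top peak at percentiles 70.0, 62.0 and 76.8, with centres 104, 34 and 14 bp upstream of the start. It was the one ring gene besides MCM3 and MCM4 that stood above the median of all genes in the 250k list. The 4 E2F-type words read in MCM6, on either strand, lay inside these peaks in every list. PRO-seq 1M held a further MCM6 start peak 476 bp downstream by its centre, at percentile 4.83 and with a p listed as 0. Beyond the window, both 1M lists held an intronic MCM6 peak, at percentiles 20.1 and 20.4, whose intervals began 606 and 536 bp from the start. With a CDT1 peak at 593 bp, these were the closest peaks left out by the 500 bp limit. The farthest peak admitted was a PCNA peak 406 bp from a start, at percentile 3.70 in qPRO-seq 1M.

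The other 3 ring genes share their start region with a protein-coding gene on the opposite strand. Such a partner, with a start within 1000 bp, was annotated for 4 of the 10 licensing genes (MCM2, MCM4, MCM7 and PCNA) and for 17.2% of all protein-coding genes. At a shared region, a dREG peak cannot be assigned to either gene, so the values below belong to both.

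MCM2 (chromosome 3, 127598223 to 127622436, plus strand) starts 19 bp from a start of TPRA1. A single peak per list covered both, at percentiles 80.4, 80.7 and 59.9, and it was the top start peak of both genes in all 3 lists. Its centres lay 17, 27 and 27 bp downstream of the MCM2 start. The intervals were 740, 530 and 390 bp wide, and all 3 covered the E2F-type words just after the RefSeq start.

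MCM4 (chromosome 8, 47960185 to 47978160, plus strand) starts 2 bp from a start of PRKDC, the catalytic subunit of DNA-dependent protein kinase. A cluster of further MCM4 starts begins at 47960898. A first peak was centred at 47960210 in all 3 lists, 25 bp past the shared start, at percentiles 78.3, 60.1 and 58.8. A second was centred at 47960740, 47960870 and 47960890, at percentiles 46.9, 79.0 and 74.1. The first peak ranked higher in PRO-seq 1M and the second ranked higher in both quick-protocol lists. In qPRO-seq 1M a small peak of 130 bp lay between them, with a p listed as 0, and another at 47961631 to 47961980 stood at percentile 0.36.

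MCM7 (chromosome 7, 100092728 to 100101940, minus strand) overlaps AP4M1, a subunit of an adaptor complex of vesicle transport, head to head. The peak at their starts stood at percentiles 30.5, 49.8 and 37.2, the lowest of the ring genes in all 3 lists, and at or above only 8.59%, 15.5% and 18.8% of genes with a start peak. Centres lay 141, 111 and 11 bp upstream of the closest MCM7 start, at 100101409, and the same peak was the top start peak of AP4M1. In qPRO-seq 1M another peak lay at the outermost MCM7 start, at percentile 6.67 and with no counterpart. With lists of equal length, MCM7 had no start peak left in PRO-seq 1M or qPRO-seq 1M.

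The loading factors CDC6 and CDT1 held the lowest top peak of the set in every list, CDC6 in PRO-seq 1M and CDT1 in both quick-protocol lists. CDC6 (chromosome 17, 40287633 to 40304657, plus strand), the ATPase that recruits the MCM ring, had its top peak at percentiles 22.1, 84.4 and 31.6, a range of 62.4 points and the widest of the 10 genes. The peaks did not cover the same bases. PRO-seq 1M held only a peak of 280 bp at 40287341 to 40287620, which ended before every annotated CDC6 start. The qPRO-seq 1M list held a peak at 40287211 to 40287520 (percentile 46.4) and the top peak at 40287541 to 40287950, and the 250k peak lay at 40287581 to 40287950. The RefSeq start of CDC6 (40287879) and the E2F-type match beside it lay inside both quick-protocol peaks and outside the PRO-seq 1M peak.

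The CDC6 call also depended on the settings. In PRO-seq 1M its deposited p was 0.019, and with a limit of 0.01 on p, or at equal list length, CDC6 had no start peak there. The 250k peak had a score of 0.462 and a p listed as 0, and without low-scoring peaks of that kind CDC6 had none in that list.

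CDT1 (chromosome 16, 88803213 to 88809258, plus strand), the partner of CDC6 in MCM loading, had its top peak at percentiles 40.8, 39.8 and 13.6, the lowest of the set in both quick-protocol lists. Its centres lay 437, 407 and 547 bp downstream of the annotated GENCODE start, farther than those of any other member. RefSeq places the CDT1 start 576 bp further in, at 88803789, and against that start the same centres lay at -139, -169 and -29 bp, where negative is upstream. The peaks in all lists covered the RefSeq start and the E2F-type match at -35. The distance of CDT1 peaks from a start thus changed with the start used, and so did that of other members. Against their RefSeq starts, the MCM2 centres lay at -171, -161 and -161 bp and the MCM3 centres at -198, -208 and -218 bp. Those of MCM10 hardly changed, at -88 and -148 bp in the 1M lists. At equal list length CDT1 had no start peak in qPRO-seq 1M.

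Around CDT1 the lists also differed in which further peaks they held. PRO-seq 1M held a peak at the GENCODE start (88802781 to 88803260, percentile 19.4, p listed as 0) with no counterpart. Both quick-protocol lists held a peak near an inner start (88804141 to 88804770 and 88804161 to 88804670), at percentiles 36.9 and 5.01, which PRO-seq 1M lacked. A peak 593 bp upstream of the start, at percentile 60.6 in qPRO-seq 1M alone, fell outside the window. It ranked above the CDT1 start peaks of that list.

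MCM10 (chromosome 10, 13161554 to 13211104, plus strand) was the member whose peak was missing from a list. Its single peak stood at percentile 52.3 in PRO-seq 1M (13161221 to 13161730) and 88.6 in qPRO-seq 1M (13161181 to 13161970), with deposited scores of 0.635 and 0.951. Its centres lay 84 and 144 bp upstream of the start. In the 250k list the nearest peak of any kind was 61.4 kb from an MCM10 start. That gap was set against other genes after it had been seen. Of 3458 protein-coding genes whose top qPRO-seq 1M start peak stood at or above that of MCM10, 64 (1.85%) had no start peak in the 250k list. Of all 10821 genes with a qPRO-seq 1M start peak, 19.9% had none there. This cut came from the list where MCM10 ranked higher. MCM10 stood at or above 68.1% of genes in qPRO-seq 1M and 20.6% in PRO-seq 1M, and no such share was computed at its PRO-seq 1M rank. The 250k list was also the shortest, and the part of list length or of read depth, which is unknown, in the missing MCM10 peak was not tested.

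PCNA (chromosome 20, 5114953 to 5126626, minus strand) has annotated starts at 5126626, 160 bp from the start of CDS2, and at 5120026, inside the gene. Both carried peaks in all 3 lists. At the inner start the peak stood at percentiles 79.7, 86.0 and 48.8, and at the outer start at 60.9, 72.8 and 60.9. The inner peak was the higher in both 1M lists and the outer peak was the higher in the 250k list. The outer region was a single peak in both quick-protocol lists and was divided in PRO-seq 1M into peaks of 330 and 250 bp, with the lower one at percentile 24.2. The outer peaks overlap the stretch between PCNA and CDS2 printed above, except the lower PRO-seq 1M peak (5126801 to 5127050), which lies past it. All of the outer peaks count as start peaks of both genes. The E2F-type match and the 3 CCAAT words of that stretch lay inside the overlapping peak of each list. The inner window held CCAAT and GGGCGG but no E2F-type word.

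**Figure D2:**
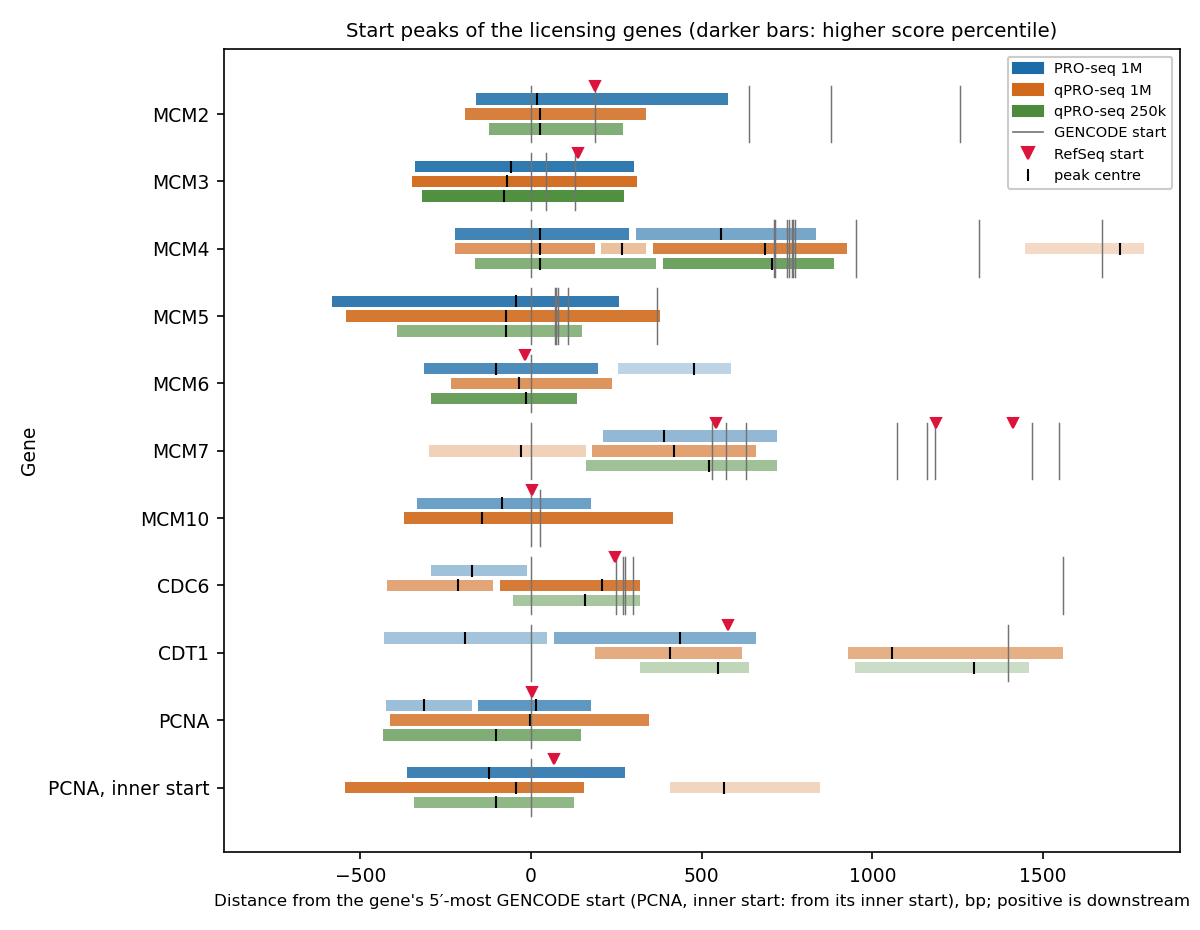
Start peaks of the licensing genes as bars along the distance in bp from the 5′-most GENCODE start (x axis, positive downstream), with 1 row per gene and PCNA drawn at both starts; bar colour gives the list, darker bars have higher score percentiles, black ticks are peak centres, grey lines GENCODE starts and red triangles RefSeq starts. MCM3 shows nearly equal intervals in the 3 lists, the CDC6 bar of PRO-seq 1M ends before the CDC6 starts, and the centres of the top CDT1 peaks lie 407 to 547 bp past the GENCODE start, with the further CDT1 peaks on either side.

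Across the set, centres of top start peaks lay close to and mostly upstream of a start. The median distance to the nearest annotated start was 94 bp over 10 genes, 56.5 bp over 10 genes and 73 bp over 9 genes, against 52, 59 and 50 bp over all protein-coding genes with a start peak. Measured from the 5′-most start alone, the qPRO-seq 1M median was 108.5 bp. Centres lay upstream for 7 of 10, 8 of 10 and 7 of 9 genes, and for 73.1%, 73.4% and 75.3% of all genes. Distances of at most 100 bp were found for 5, 7 and 7 of them, against 68.2%, 65.2% and 69.5% of all genes. Peak positions lie on a grid of 10 bp. Median widths of the top peaks were 550, 550 and 500 bp, beside 550, 540 and 470 bp over all genes.

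Sharing between lists was read as an overlap of at least 1 bp. Of the 45 start peaks of the members, 35 had a counterpart in both other lists, 6 in 1 other list and 4 in none. The 4 without a counterpart stood at percentile 19.4 or lower in their lists (those of MCM4, MCM7, CDT1 and PCNA described above). Of 15 PRO-seq 1M peaks, 93.3% were overlapped in qPRO-seq 1M and 80.0% in qPRO-seq 250k, against 92.3% and 68.9% of all start peaks of protein-coding genes. Of 18 qPRO-seq 1M peaks, 77.8% were overlapped in PRO-seq 1M and 72.2% in qPRO-seq 250k, against 83.1% and 62.9%. Of 12 qPRO-seq 250k peaks, 91.7% were overlapped in PRO-seq 1M and 100% in qPRO-seq 1M, against 95.8% and 98.1%. The shares for the members lay near those of all start peaks.

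Joined wherever they overlapped, the start peaks of the members formed 17 regions. All 3 lists held 10 of them, 1 for each member but MCM10 and 2 for PCNA. The MCM10 region was in both 1M lists, the inner CDT1 region in both quick-protocol lists, and 3 regions in qPRO-seq 1M alone. The other 2 held start peaks of PRO-seq 1M only, at CDT1 and MCM6, and that of MCM6 was overlapped by the intronic qPRO-seq 1M peak outside the 500 bp window. A p of exactly 0 was listed for 5 of the 45 peaks, 4 of which scored below 0.5. In the whole lists 19.6%, 21.1% and 12.4% of peaks had a listed p of 0. Of the 45 peaks, 16 lay within 20 bp of another peak of their list.

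**Figure D3:**
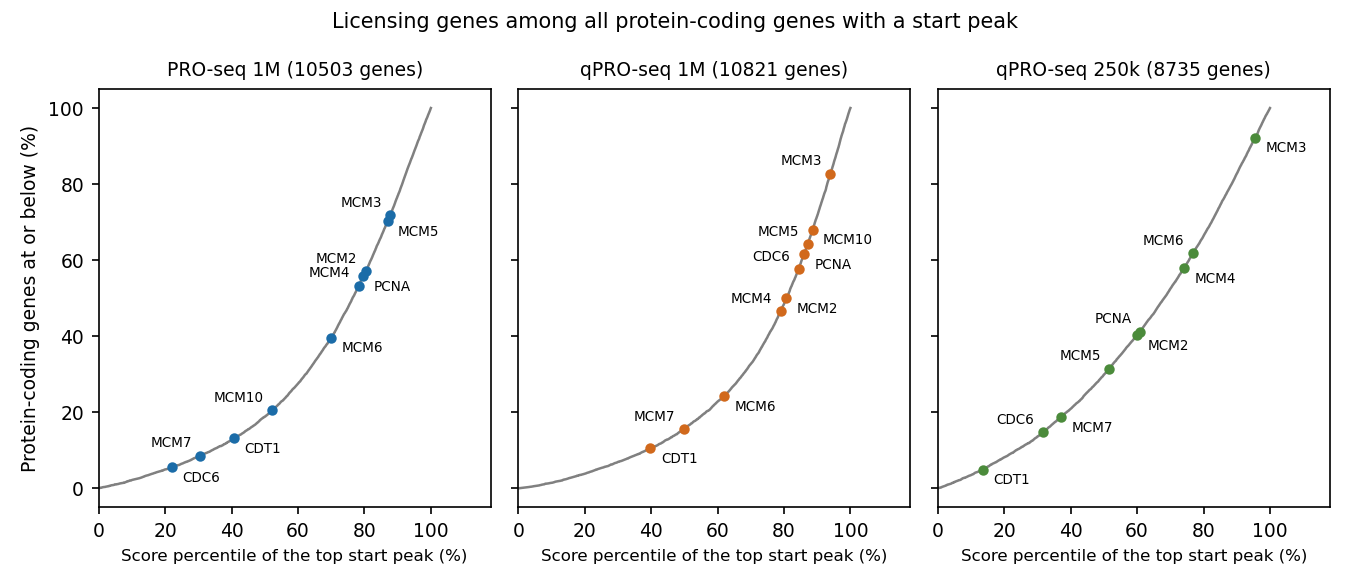
Cumulative share of protein-coding genes (y axis, percent) against the score percentile of their top start peak (x axis, percent) in each list, for the 10503, 10821 and 8735 genes with a start peak, with the licensing genes as labelled points. The points run from the low end (CDT1 at or above 4.90% of genes in qPRO-seq 250k, CDC6 at or above 5.55% in PRO-seq 1M) to the high end (MCM3 at or above 92.2% in qPRO-seq 250k).

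Other genes of DNA replication, in a list of 52 ordered by role, were looked up in the same way. A start peak was found for 50, 50 and 46 of the 52, and for 46 in all 3 lists, against the shares of 52.9%, 54.5% and 44.0% for protein-coding genes at large. Their median top percentiles were 83.7, 87.9 and 83.8, above the 74.2, 82.6 and 59.9 of the licensing genes in every list, with no test of the difference. All 6 genes of the origin recognition complex, which marks origins for licensing, had a start peak in every list, in order of their medians from ORC2 at percentiles 38.7, 69.7 and 33.8 to ORC5 at 88.7, 96.4 and 93.4. GMNN, the inhibitor of CDT1, stood at 92.5, 97.0 and 95.6, far from the 40.8, 39.8 and 13.6 of CDT1. The kinase genes CDC7 and DBF4, which act on the loaded MCM ring, stood at 79.1, 99.8 and 92.2 and at 97.8, 97.9 and 96.6.

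The highest medians over the lists belonged to TICRR (99.1), a factor of helicase activation, to POLE3 (98.1), a subunit of DNA polymerase epsilon, and to DBF4, POLD3 and RFC2 (97.8 each). The lowest belonged to POLD4 (27.4), POLD1 (27.5) and GINS2 (29.5). FEN1, the flap endonuclease of Okazaki fragments, and RECQL4, a helicase of the activation step, had no start peak in any list. The nearest peaks lay 18.7, 19.0 and 18.9 kb from a FEN1 start and 3.92, 3.76 and 4.12 kb from a RECQL4 start. POLD1, POLD4, LIG1 and DNA2 had start peaks in both 1M lists and, like MCM10, none in the 250k list. In the 1M lists POLD1 stood at percentiles 42.3 and 12.7, POLD4 at 26.8 and 28.1, LIG1 at 64.8 and 42.8 and DNA2 at 83.8 and 46.4, all below MCM10 in qPRO-seq 1M (88.6), while LIG1 and DNA2 stood above it in PRO-seq 1M (52.3). An E2F-type word was found in 18 of the 44 listed genes with a RefSeq window, beside 7 of the 8 licensing genes searched and 5.41% of all genes. The 7-letter words were found in 28 of the 44.

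**Figure D4:**
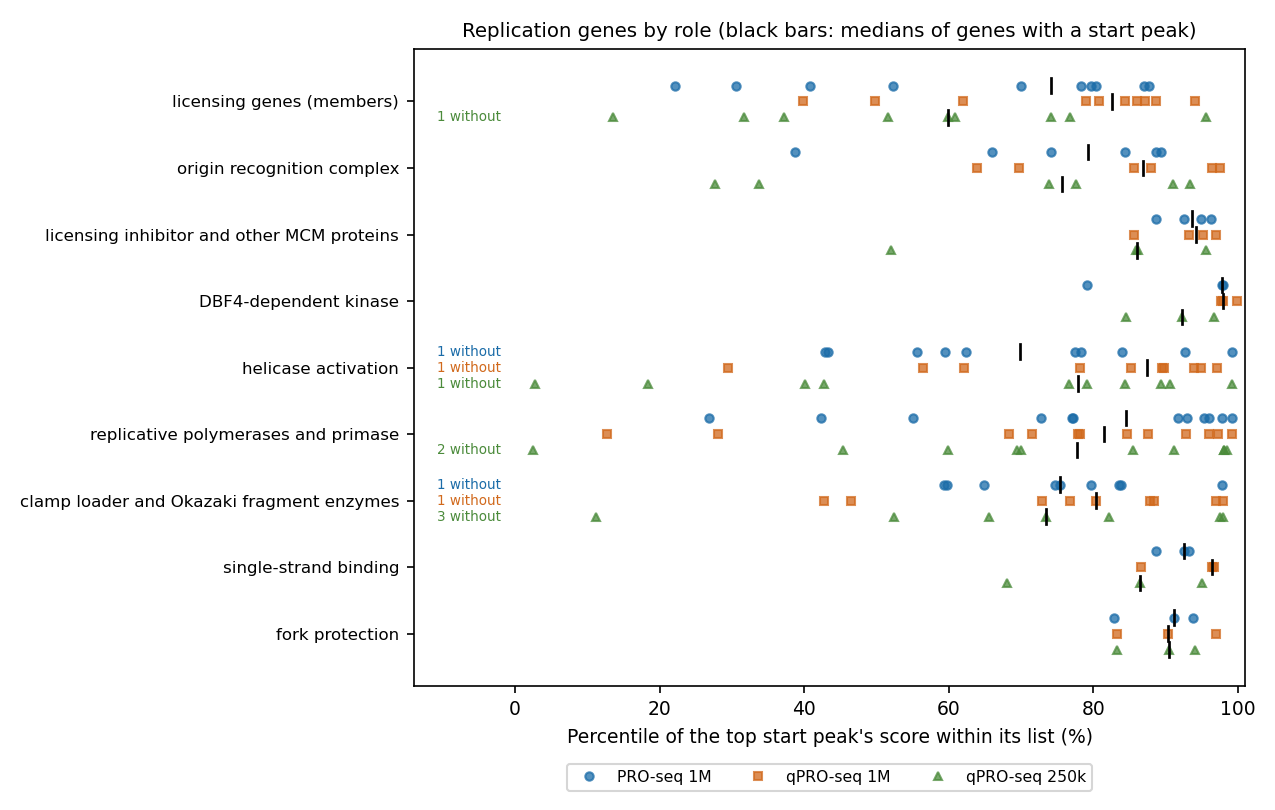
Score percentile of the top start peak within its list (x axis, percent) for the licensing genes and 52 other replication genes grouped by role (y axis), with circles for PRO-seq 1M, squares for qPRO-seq 1M and triangles for qPRO-seq 250k; black bars are medians of genes with a start peak, and the numbers at the left count genes without one. The licensing genes spread from 13.6 to 95.6, and genes without a start peak in any list occur in helicase activation (RECQL4) and among the Okazaki fragment enzymes (FEN1).

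The 5 protein-coding genes whose 3 percentiles lay nearest to the members' medians, by summed absolute difference over the 3 lists and among 8557 genes with a start peak in all of them, were RCN2, WASF2, IMPAD1, GLO1 and MITF. They differed from the medians by 1.60, 2.45, 2.67, 2.73 and 2.74 points in all.

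The lists held 24707, 38177 and 15562 peaks on the chromosomes used. The labels call K562 lymphoblastoid. Of the markers of erythroid and myeloid cells, GATA1, TAL1, KLF1, NFE2, GFI1B, LYL1, HBG1 and EPOR had a start peak in every list. Of the markers of B lymphoblasts, PAX5, CD79A, CD79B, MS4A1, CD22, POU2AF1 and BLK had none in any list, and EBF1 had one in both 1M lists.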

How the data were processed

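Run-on libraries from 6 K562 samples, in 3 groups of 2, were represented by 1 dREG peak list per group, matched to groups by the sample titles and descriptions. Per the submitters' processing notes, fastp 0.20.0, Bowtie2 2.3.5.1, deepTools 3.1.3 and UMI-tools were used with build hg38 (GRCh38); their roles, the pooling of replicates and dREG's thresholds are not given in the sources used here. The score of each peak and its p-value (adjustment not stated) are as the authors deposited them, without read counts, so the depth and its precision are unknown. Scores served only as ranks within a list.

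Start peaks, distances, overlaps and motif matches were computed with Python 3.11.15 and numpy 2.4.6. Starts were counted from 1. Background values cover all protein-coding genes on chromosomes 1 to 22 and X. The functions were checked on simulated peaks. Named were the members, their partners, pathway genes lacking a start peak, the pathway genes at either end of the median percentile and the genes of nearest profile; ORC2, ORC5, GMNN, CDC7 and LIG1 were named as examples of their roles or for missing peaks. The members and lists were chosen with earlier results of these data known. Alternatives changed the window, the starts used, the p limit, the list length, the merging of peaks, the chromosomes, the percentile's reference peaks, the start peak that stands for a gene, the overlap rule and the motif's length. Some of the cell type markers looked up are not reported here.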

Additional observations from a re-analysis of the deposited data

How the results depend on the processing

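Of 152 alternative values, 149 stayed within 1.5 times the reported count, or within the 95% interval of the reported share or median. These limits are loose. The intervals are wide with 9 or 10 genes and treat genes, or several peaks of a gene, as independent. Falls from 9 to 6 genes in all lists and from 82.6 to 63.7 in the qPRO-seq 1M median percentile counted as within them. The 149 is therefore no measure of robustness. Equal list lengths lowered the number of qPRO-seq 1M start peaks from 18 to 10. With centres within 100 bp in place of overlap, the share of PRO-seq 1M start peaks found in qPRO-seq 250k was 40.0% and the reverse share was 50.0%; the cause was not tested. At equal list lengths 8 genes kept a start peak in each 1M list (47.0% of all genes in PRO-seq 1M and 42.4% in qPRO-seq 1M), without MCM7 and CDC6 in PRO-seq 1M and without MCM7 and CDT1 in qPRO-seq 1M, and 6 kept one in all 3 lists (9 as reported). The median percentiles ranged over all alternatives from 64.5 to 74.7, from 63.7 to 82.6 and from 50.8 to 59.9 in the 3 lists. MCM10 lacked a 250k start peak under every window, start set and filter run, but none of these could have given it one. The nearest 250k peak lay 61.4 kb from an MCM10 start, the widest window was 1000 bp, and filters only remove peaks. No paired analysis was possible because each list stands for both replicates, and for the same reason no replicate could be left out. Unknown depth limits every absence.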
